A study of Homo sapiens with 4 samples.

Results

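The circadian clock genes with BHLHE40 are 10 genes, taken by symbol from the 16376 gene rows of an RNA sequencing table. They are BHLHE40, BHLHE41, CLOCK, ARNTL (also written BMAL1), PER1, PER2, PER3, CRY1, CRY2 and NR1D1, and all 10 had a row. BHLHE40 was chosen by its measured values, as a gene called lower with ketotifen in this same contrast, and the other 9 were added as known parts of the clock. The difference between ketotifen and PBS is therefore given for the members as a description, without p-values. RNA came from LASCPC-01, an established human neuroendocrine prostate cancer cell line, derived from benign prostate cells that were given N-Myc and an active form of AKT1, and labelled WT, so all values are those of 1 line. There were 2 libraries from cells treated with ketotifen, an H1 antihistamine and mast cell stabiliser, and 2 from cells treated with PBS, the saline vehicle, all at day 3. The labels give neither a dose nor the hour of collection, nor whether the cells' clocks had been set to a common phase, so the levels are those of 1 time point. Separate cultures are not stated for the libraries of a group, and p-values measure no more than the spread among these libraries, which could be technical.

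The mammalian clock is a feedback loop of transcription. CLOCK and ARNTL bind together to E-box DNA and activate the PER, CRY, NR1D1 and BHLHE genes. PER and CRY proteins return to the nucleus and block CLOCK and ARNTL, NR1D1 (REV-ERB alpha) represses ARNTL, and BHLHE40 and BHLHE41 (DEC1 and DEC2) repress by occupying the same E-boxes. BHLHE40 is also induced in low oxygen by hypoxia-inducible factors. In cultured cells the loop runs in each cell, and cells that are not synchronised average out in bulk RNA.

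The DNA elements through which these genes are wired together are short, and the promoters were searched for them to show which members carry which letters. RefSeq promoters (GRCh38.p14, 250 bases before to 50 after a start site) were found for all 10 members, 14 promoters in all. A member was counted when any of its promoters held the letters, whereas the shares given beside are per single promoter. The units therefore differ. The letters CACGTG, the canonical E-box, occurred in promoters of 3 members, against 7.26% of 35116 promoters of the same length. The following windows of 30 bases are shown because they hold the sites that BHLHE40 itself could share with CLOCK and ARNTL, with the E-box in capitals.

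BHLHE40, chr3:4979187-4979216, plus strand: tccaaCACGTGagactcatgtgatgaagcc
BHLHE41, chr12:26125068-26125097, minus strand: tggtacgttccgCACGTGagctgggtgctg
PER1, chr17:8152560-8152589, minus strand: agcacccaggtcCACGTGcgcccgtgtgtg

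The E-box began at position -245 from the RefSeq start site in BHLHE40, at -48 in BHLHE41 and at -173 in PER1. In GENCODE 29, which places other starts further upstream, the BHLHE40 and BHLHE41 windows lie in an exon of their gene and the PER1 window in an intron. The variant E-box CACGTT, or AACGTG on the other strand, occurred in promoters of 5 members (PER2, CRY1, CRY2, CLOCK and NR1D1), against 5.34% of all promoters. PER2 and CRY1 are shown, since they were the members other than BHLHE40 with the largest differences among those averaging 1 FPKM or more, in opposite directions.

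PER2, chr2:238288790-238288819, minus strand: ggcgcgcgcggtCACGTTttccactatgtg
CRY1, chr12:107093621-107093650, minus strand: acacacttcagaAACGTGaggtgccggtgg

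The D-box, bound by the output factors DBP, TEF, HLF and NFIL3, was searched as TTATGTAA and as TTACGTAA, on both strands. TTATGTAA occurred in PER3, against 0.886% of all promoters, and TTACGTAA in PER2, against 0.125%. Both are shown with the D-box in capitals.

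PER3, chr1:7784103-7784132, plus strand: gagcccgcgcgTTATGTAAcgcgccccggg
PER2, chr2:238288595-238288624, minus strand: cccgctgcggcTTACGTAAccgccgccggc

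The core of the ROR element, AGGTCA, through which NR1D1 and the ROR activators act, was found in promoters of 3 members (PER1, CRY2 and ARNTL), against 13.8% of all. ACGTG, the core of the hypoxia response element, was found in 8 members, against 21.4% of all promoters, but these letters lie inside both CACGTG and AACGTG, so the counts overlap. TGACGTCA, the cAMP response element, was found in 0 members, against 1.85% of all. A match says only that the letters are present, and no binding was measured.

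All 10 genes were detected in all 4 libraries, at levels that ran from under 0.1 to 20.05 FPKM. FPKM is by definition the number of fragments scaled by gene length and by library total. Comparisons of level between genes rest on that scaling, and the sources used here name neither the lengths nor the total. Read numbers recovered from the steps of the FPKM values, which are lower bounds, summed to 34979380 and 32177716 in the ketotifen libraries and to 31313132 and 33105054 in the PBS libraries. The neuroendocrine markers INSM1, NCAM1, ENO2 and UCHL1 averaged 1 FPKM or more, whereas SYP, CHGA, CHGB and FOXA2 did not. TMPRSS2, a luminal prostate marker, reached 1 FPKM. Of 4 immune markers with a row only CD68 reached 1 FPKM, of 5 fibroblast markers only COL1A1, and of 3 endothelial markers none.

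With ketotifen the order of mean levels was BHLHE40, CRY1, ARNTL, PER1, NR1D1, CLOCK, CRY2, PER2, BHLHE41 and PER3. With PBS it was BHLHE40, ARNTL, PER1, CRY1, NR1D1, CLOCK, CRY2, PER2, BHLHE41 and PER3. CRY1 was thus at place 2 with ketotifen and at place 4 with PBS, and the other genes kept their relative order. Most neighbours in these orders did not overlap between libraries of a group. The exceptions were CLOCK and CRY2 with ketotifen, and CLOCK and CRY2 as well as ARNTL and PER1 with PBS.

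**Figure D1:**
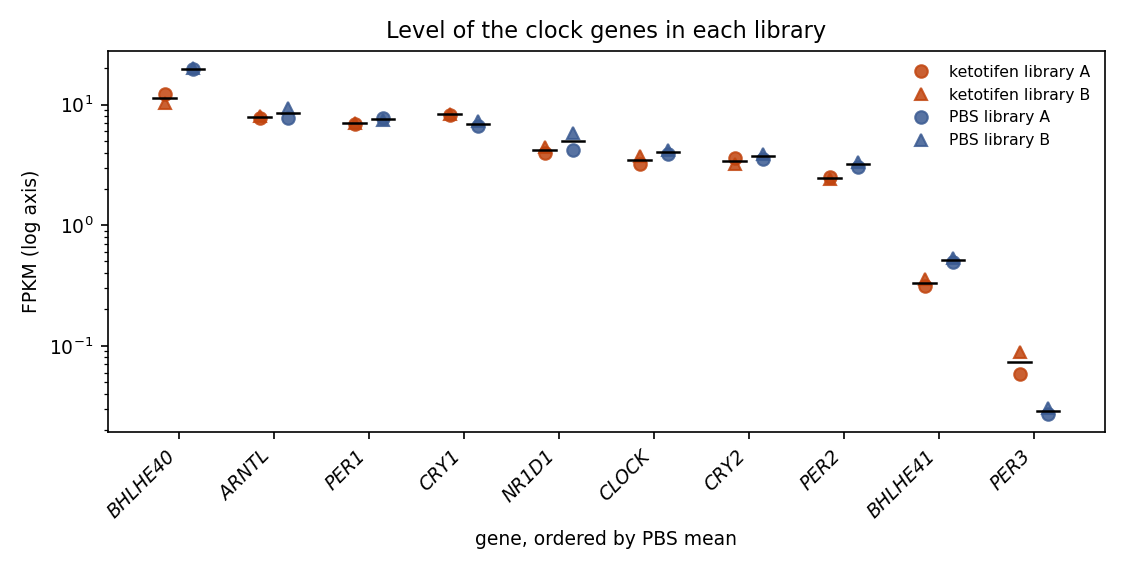
FPKM on a log axis of the 10 genes in the ketotifen libraries (left of each pair) and the PBS libraries (right), with circles for library A, triangles for library B and a bar at the group mean of 2. BHLHE40 had the highest level in every library and PER3 the lowest, and the BHLHE40 groups stand clearly apart.

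BHLHE40, the DEC1 repressor, had 12.2 and 10.3 FPKM in the ketotifen libraries, against 19.5 and 20.05 FPKM in the PBS libraries. Both ketotifen libraries lay far below both PBS libraries, and the ketotifen libraries differed more from each other than the PBS libraries did. The means were 11.3 ± 1.31 FPKM with ketotifen and 19.8 ± 0.362 FPKM with PBS (SD, n = 2 each), so the mean fell by 43.1%. On the log2(FPKM + 1) scale the difference was -0.77 ± 0.08 (SE from limma), and 18 of 10586 tested genes had a larger absolute difference. The gene lies on chromosome 3 (4979116 to 4985323, plus strand, GENCODE 29 on GRCh38). It was covered by at least 1418 and 1106 reads in the ketotifen libraries and 2035 and 2208 reads in the PBS libraries.

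BHLHE40 was the 1 member called by limma (Benjamini-Hochberg adjusted p under 0.05), out of 8 members averaging 1 FPKM or more, and it was called lower. Over all 10586 tested genes 0.113% were called lower, 12 genes, and 0.00945% higher, 1 gene. Without ketotifen library A limma called 23 genes lower and 5 higher, without ketotifen library B 7 and 3, without PBS library A 875 and 1061, and without PBS library B 167 and 254. In each of these fits the group left with 1 library is assumed to vary like the other. Voom on the recovered reads called BHLHE40 and PER2 lower and no member higher, where it called 3.56% of all genes lower and 3.35% higher, 6.91% in either direction. Since this contrast chose BHLHE40, nothing is read from these counts. BHLHE40 was not called after median ratio scaling, after quantile normalization or with no filter on low values, where its difference was -0.75, -0.75 and -0.77.

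BHLHE41, the DEC2 repressor and closest relative of BHLHE40, was expressed at a low level. It had 0.313 and 0.356 FPKM with ketotifen, against 0.496 and 0.538 FPKM with PBS. The groups did not overlap, and the ketotifen libraries were the lower ones, in the direction of BHLHE40. The values rest on at least 88 reads with ketotifen and 131 reads with PBS, a ratio of 0.645 after scaling for depth. Its exact 95% interval of 0.486 to 0.851 covers counting error only and takes the recovered reads as the true counts. BHLHE41 lies on chromosome 12 and did not reach the filter. BHLHE40 exceeded BHLHE41 by a ratio of 38.9 and 29.03 in the ketotifen libraries and 39.4 and 37.3 in the PBS libraries. BHLHE41 had at least 43 and 45 reads in the ketotifen libraries and 61 and 70 reads in the PBS libraries, and at such counts these ratios are imprecise.

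The activators CLOCK and ARNTL showed small differences. CLOCK, the DNA-binding partner of ARNTL, had 3.22 and 3.73 FPKM with ketotifen and 3.90 and 4.17 FPKM with PBS. Its groups did not overlap, although the gap between them was smaller than the gap between the ketotifen libraries. The difference was -0.17 ± 0.09 (SE) on the log2(FPKM + 1) scale. ARNTL had 7.70 and 8.03 FPKM with ketotifen and 7.75 and 9.29 FPKM with PBS. PBS library A lay between the ketotifen libraries, so the groups overlapped, and the difference of -0.10 ± 0.09 came from PBS library B. Without that library it was 0.02. ARNTL exceeded CLOCK by 2.39 and 2.15 in the ketotifen libraries and by 1.99 and 2.23 in the PBS libraries, ranges that overlapped.

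Among the PER repressors, PER2 showed the largest difference of the members averaging 1 FPKM or more, after BHLHE40. PER2, the PER protein whose loss shortens or abolishes rhythms in mice, had 2.49 and 2.41 FPKM with ketotifen and 3.05 and 3.32 FPKM with PBS. Both ketotifen libraries lay below both PBS libraries, and the difference was -0.28 ± 0.08 (SE). The means were 2.45 ± 0.0572 FPKM with ketotifen and 3.18 ± 0.196 FPKM with PBS (SD, n = 2 each). PER1, a PER gene induced rapidly by hormones and cAMP, had 6.87 and 7.07 FPKM with ketotifen and 7.80 and 7.47 FPKM with PBS. Its groups did not overlap either, with a difference of -0.12 ± 0.07 (SE). It was the 1 member of 10 with a higher level in PBS library A than in PBS library B.

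PER3 was barely expressed, with 0.0579 and 0.0892 FPKM in the ketotifen libraries and 0.0270 and 0.0306 FPKM in the PBS libraries. These are at least 12 and 17 reads with ketotifen, against at least 5 and 6 reads with PBS. The ratio of summed reads was 2.53 after scaling for depth. Its exact 95% interval was 1.23 to 5.61, for counting error only and with the recovered reads taken as the true counts. At this depth the size of the difference is poorly fixed, and PER3 did not reach the filter. Because PER3 was so low, PER1 and PER2 made up almost all of the PER RNA, which summed to 9.42 and 9.57 FPKM with ketotifen and 10.9 and 10.8 FPKM with PBS.

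Of the CRY repressors, only CRY1 separated between the groups. CRY1, a strong repressor of CLOCK and ARNTL whose loss shortens the period in mice, had 8.21 and 8.33 FPKM with ketotifen and 6.66 and 7.24 FPKM with PBS. Both ketotifen libraries lay above both PBS libraries, and CRY1 was the 1 member averaging 1 FPKM or more whose difference was positive, at 0.22 ± 0.07 (SE). The means were 8.27 ± 0.0906 FPKM with ketotifen and 6.95 ± 0.413 FPKM with PBS (SD, n = 2 each). CRY2, whose loss lengthens the period in mice, had 3.62 and 3.23 FPKM with ketotifen and 3.56 and 3.91 FPKM with PBS. Its groups overlapped, and the difference was -0.10 ± 0.08 (SE).

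NR1D1, the REV-ERB alpha receptor that represses ARNTL, had 3.97 and 4.48 FPKM with ketotifen and 4.20 and 5.81 FPKM with PBS. The ketotifen libraries overlapped PBS library A, and PBS library B stood above the other 3. The difference was -0.19 ± 0.13 (SE) with all libraries and 0.01 without PBS library B. The difference between the PBS libraries themselves, B minus A, was 0.39 for NR1D1 on the same scale. NR1D1 shares 263 exonic bases with THRA on the opposite strand in GENCODE 29, and whether counting used the strand is not given in the sources used here. THRA, the thyroid hormone receptor alpha gene, had 5.62 and 5.98 FPKM with ketotifen and 6.35 and 6.67 FPKM with PBS (limma adjusted p = 0.296). Among the other members only CLOCK and BHLHE41 share exonic bases with a gene that has a row, 76 bases with TMEM165 and 162 bases with SSPN, both on the opposite strand.

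Across all 10 members the ketotifen libraries lay wholly below the PBS libraries for 5 genes (BHLHE40, BHLHE41, CLOCK, PER1 and PER2), wholly above for 2 (CRY1 and PER3) and overlapped for 3 (ARNTL, CRY2 and NR1D1). Of the 8 members averaging 1 FPKM or more, 4 lay wholly below, 1 wholly above and 3 overlapped. Over all tested genes the groups did not overlap in 31.2% with ketotifen lower and in 23.2% with ketotifen higher. PBS library B was above PBS library A for 9 of the 10 members and for 7 of the 8 tested ones, beside 52.8% of all tested genes. The part of that library in the negative differences was measured by leaving it out. Without PBS library B, 6 members had a negative difference, against 8 with all libraries, and BHLHE40 was at -0.75, PER2 at -0.23 and CRY1 at 0.28.

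**Figure D2:**
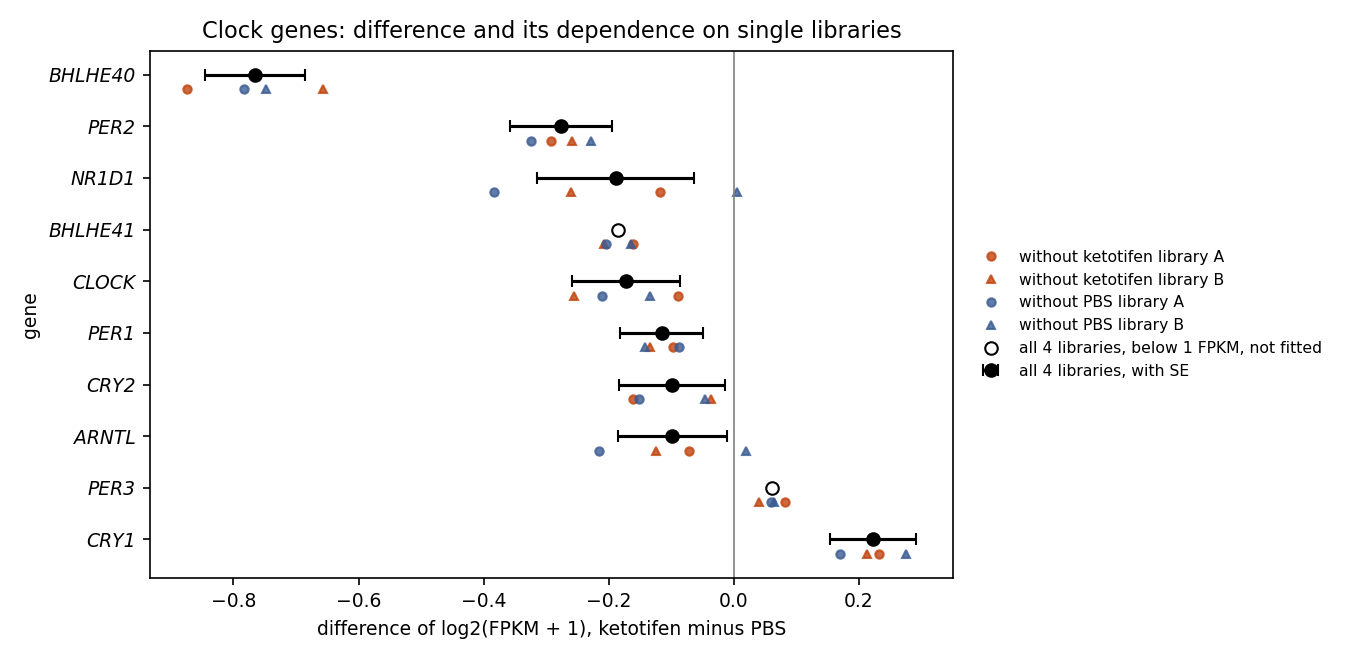
Difference of log2(FPKM + 1), ketotifen minus PBS, for each gene with all 4 libraries (black, bars are limma's SE, open circles for genes under 1 FPKM) and with each library left out (coloured). BHLHE40 stayed between -0.87 and -0.66 and CRY1 between 0.17 and 0.28, whereas ARNTL and NR1D1 reached 0.02 and 0.01 without PBS library B.

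Ratios within a library remove any scaling that all genes of that library share. The ratio of CRY1 to PER2 was 3.29 and 3.45 in the ketotifen libraries and 2.19 and 2.18 in the PBS libraries. The PBS libraries gave almost the same ratio, and both ketotifen libraries were above them. This separation was fixed by the single genes, since CRY1 lay wholly above with ketotifen and PER2 wholly below. It therefore adds no further result. CRY1 to CRY2 was 2.27 and 2.58 with ketotifen and 1.87 and 1.85 with PBS, again without overlap. BHLHE40 to ARNTL was 1.58 and 1.29 with ketotifen, against 2.52 and 2.16 with PBS. BHLHE40 was chosen as lower in this contrast, so its lower ratio is no further result either. PER1 to PER2 was 2.75 and 2.93 with ketotifen and 2.56 and 2.25 with PBS, with a gap between the groups that was smaller than the gap between the PBS libraries.

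**Figure D3:**
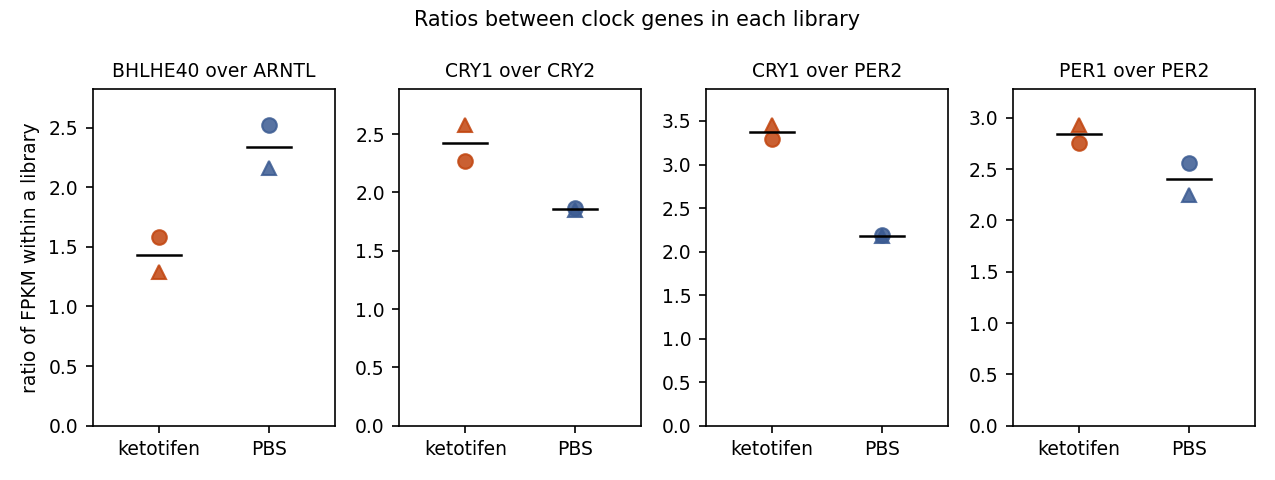
Ratio of FPKM between 2 clock genes within each library, ketotifen left and PBS right in each panel, with circles for library A, triangles for library B and a bar at the mean of 2 libraries. CRY1 over PER2 sits at 3.29 and 3.45 with ketotifen, above 2.19 and 2.18 with PBS, and BHLHE40 over ARNTL lies lower with ketotifen. The separation of CRY1 over PER2 follows from the differences of the single genes, and BHLHE40 was chosen as lower in this contrast.

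The 10 members summed to 48.6 and 48.1 FPKM in the ketotifen libraries, against 57.0 and 61.8 FPKM in the PBS libraries. BHLHE40 held 25.1% and 21.5% of that sum with ketotifen and 34.3% and 32.4% with PBS. The other 9 members together had 36.4 and 37.7 FPKM with ketotifen and 37.4 and 41.8 FPKM with PBS. Their sums overlapped between the groups, so most of the lower total lay in BHLHE40, the gene chosen as lower in this contrast. In RNA from whole cultures, fewer cells expressing a gene and less RNA per cell cannot be told apart.

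A list of 28 other clock genes, none of them a member, was tested in the same fit. Of the 23 averaging 1 FPKM or more, limma called 0, where 0.123% of all genes were called in either direction, and 3 had an unadjusted p under 0.05, all lower with ketotifen. Over all tested genes an unadjusted p under 0.05 was found for 2157 (20.4%), of which 1095 (10.3% of all) were lower, so nothing is read from the 3 of 23. The median difference of the 23 was -0.08, beside -0.02 over all 10586 tested genes. Voom called 1 lower and 0 higher. USP2, a protease that removes ubiquitin from clock proteins, had the largest difference of the list, with 3.09 and 2.80 FPKM with ketotifen and 3.86 and 3.84 FPKM with PBS. That is -0.30 ± 0.08 (SE), with a limma adjusted p of 0.122 and a voom adjusted p of 0.0589.

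Further differences among the 6 greatest in size were those of CSNK2A1, SFPQ, NCOR1 and GSK3B. CSNK2A1, the casein kinase 2 subunit that phosphorylates PER2, was at -0.15 ± 0.06 (SE, limma adjusted p = 0.21), and SFPQ, a partner of PER complexes, at -0.15 ± 0.07 (SE, limma adjusted p = 0.281). NCOR1, a REV-ERB corepressor, was at -0.13 ± 0.06 (SE, limma adjusted p = 0.251), and GSK3B, a kinase of several clock proteins, at -0.13 ± 0.07 (SE, limma adjusted p = 0.331). None of these passed the threshold of limma. NPAS2, RORA, RORB and HLF did not reach 1 FPKM. The NR1D1 paralog NR1D2 was somewhat higher than NR1D1 itself, with NR1D1 at 0.694 and 0.767 of its level in the ketotifen libraries and 0.681 and 0.943 in the PBS libraries. Without PBS library A, limma called 2 of the list lower, SFPQ among them, and without any other single library it called 0 of the list.

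BHLHE40 was placed beside the low-oxygen response because it is itself a target of hypoxia-inducible factors. The list of 24 such genes was chosen with earlier results of these data known, so its direction is no independent evidence. Of 23 tested members limma called 5 lower (NDRG1, ALDOC, BNIP3, P4HA1 and FUT11) and 0 higher, beside 0.113% called lower over all genes. An unadjusted p under 0.05 with a lower level was found for 18 of the 23, beside 10.3% of all tested genes. The median difference was -0.34, against -0.02 over all tested genes. NDRG1, a stress-response gene, fell to 2.12 ± 0.266 FPKM with ketotifen, against 5.58 ± 0.327 FPKM with PBS (SD, n = 2 each; limma adjusted p = 0.0112). The log2 differences of the other 4 were -0.99 ± 0.11 for ALDOC, a glycolytic aldolase, -0.59 ± 0.06 for BNIP3, a mitophagy receptor, -0.47 ± 0.06 for FUT11, a fucosyltransferase, and -0.45 ± 0.06 for P4HA1, a collagen prolyl hydroxylase (SE). Their limma adjusted p ran from 0.0284 to 0.0426. The count called lower was 2 without ketotifen library B, 6 without ketotifen library A and 16 without either PBS library. Voom called 15 of the 23 lower and 0 higher. The difference between this list and the clock genes was not tested.

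**Figure D4:**
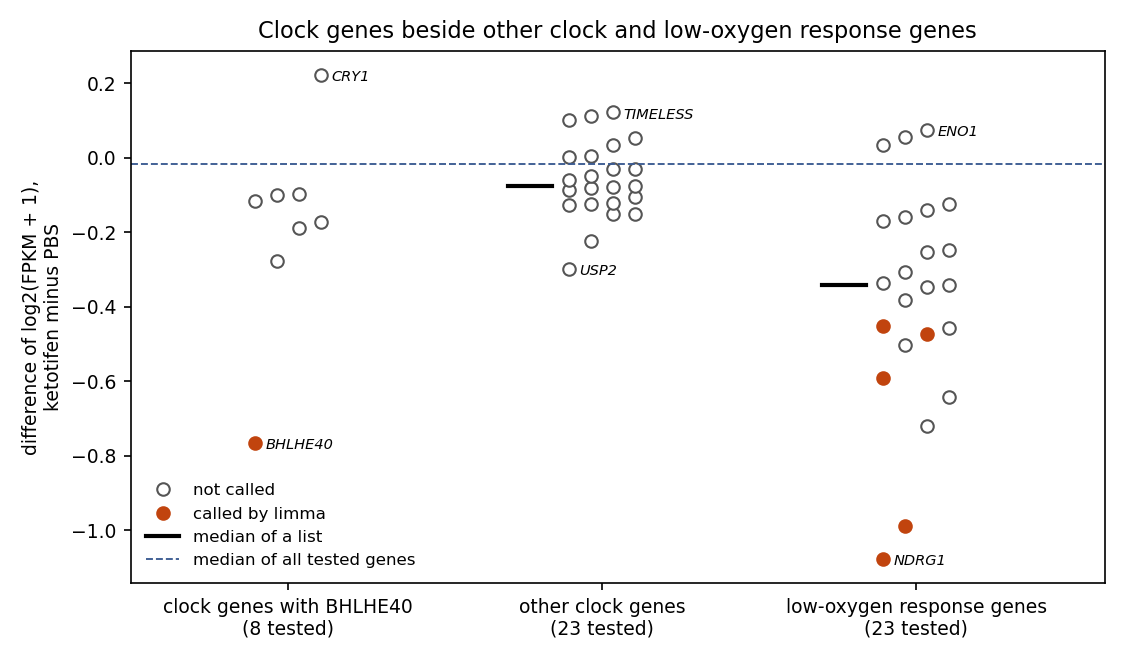
Difference of log2(FPKM + 1), ketotifen minus PBS, of 8 clock genes with BHLHE40, 23 other clock genes and 23 low-oxygen response genes averaging 1 FPKM or more, filled where limma called the gene. Short bars mark the medians of the other clock genes (-0.08) and of the low-oxygen genes (-0.34), and the dashed line the median of all tested genes (-0.02).

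The genes most like BHLHE40 across the 4 libraries were found by distance. Values of log2(FPKM + 1) were centred on each gene's own mean, and the Euclidean distance to BHLHE40 was taken for 7722 genes averaging 5 FPKM or more. The 5 nearest were BNIP3 (distance 0.24), ALDOC (0.26), PFKFB4 (0.28), NDUFA4L2 (0.28) and PHLDA2 (0.29), against a median distance of 0.78. All 5 were lower in both ketotifen libraries than in both PBS libraries, and ketotifen library B was the lowest of the 4 libraries for each. BHLHE40 has this pattern too, so the choice by distance favours it. BNIP3 had 62.3 and 59.4 FPKM with ketotifen and 96.9 and 87.6 FPKM with PBS. Of the 3 other members that reached 5 FPKM, PER1 was at place 1446 (distance 0.68) and ARNTL at place 2053 (0.71), both nearer than the median, and CRY1 was at place 7219 (1.003). With 4 libraries in 2 groups, likeness mostly means a difference of the same size and direction between the groups.

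**Figure D5:**
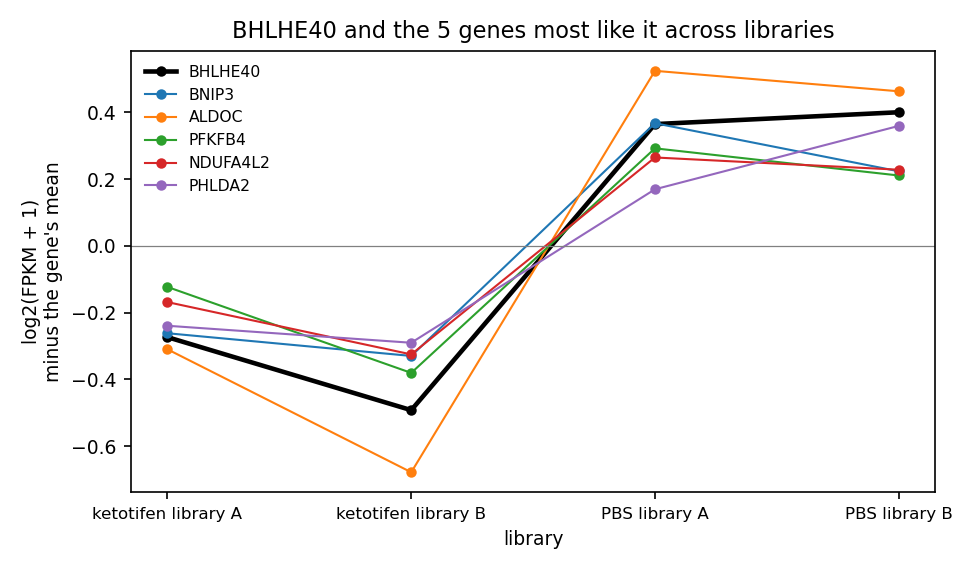
log2(FPKM + 1) minus the gene's own mean in each library, ketotifen libraries left and PBS libraries right, for BHLHE40 (black) and the 5 genes nearest to it, with lines joining the values of 1 gene. All 6 lie below their mean in both ketotifen libraries and above it in both PBS libraries, a pattern that the choice by distance favours.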

How the data were processed

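RNA of 2 ketotifen and 2 PBS samples was extracted with TRIzol, prepared with a TruSeq Stranded mRNA kit and sequenced from both ends, per the labels' protocols. Per the submitters' processing notes, fastp, HISAT2, HTSeq and GRCh38 were used, without roles or versions. The authors deposited 1 FPKM value per gene and library. The sources used here name no annotation, gene lengths or scaling total for them. Columns carry letters A and B that were not matched to the labels' replicate numbers. The ketotifen columns are named Ket5A and Ket5B, and the labels do not explain the digit in these names. Members and lists were chosen with earlier results of these data known.

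The 10586 genes averaging 1 FPKM or more were fitted with limma 3.58.1 (R 4.3.3, intensity trend, two-sided, Benjamini-Hochberg adjustment, threshold 0.05) on log2(FPKM + 1), a scale that understates changes of low genes. An exact permutation test on 1 gene cannot go below p = 0.333 here, so none was made. Within a gene and library, FPKM moves in steps of 1 read. Whole reads were recovered (Python 3.11.15) for 100% of tested genes, up to a common factor per gene, and are lower bounds. Limma's voom on these reads was an alternative. Both fits were tested on simulated data. Named genes were the members, the called or 6 most changed other clock genes, the called low-oxygen genes and the 5 genes nearest to BHLHE40, and THRA. TMEM165, SSPN and the cell type markers were named in addition. Some genes of these lists are not reported here.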

Additional observations from a re-analysis of the deposited data

How the results depend on the processing

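The counts of called genes and the differences of the 8 tested members were recomputed under 12 other settings, and those of BHLHE41 and PER3 and the number of negative members under 10. Ratios, orders of level, read ratios and distances were not recomputed. BHLHE40 kept a negative difference in all 12, from -0.87 to -0.61, and lost its call in 3 (no filter, median ratio scaling and quantile normalization). CRY1 stayed between 0.15 and 0.28 and PER2 between -0.38 and -0.13. ARNTL and NR1D1 were positive in 1 setting each, without PBS library B. No paired analysis was possible because the columns do not carry the labels' replicate numbers. Their letters A and B are not stated to pair libraries, and a fit blocked on the letters was not run.

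Limma called 1 gene higher and 12 lower. With no filter it called 0 and 0, among genes averaging 5 FPKM or more 15 higher, and 2 lower after either median ratio scaling or quantile normalization. Voom called 355 higher and 377 lower. Leaving out 1 library gave 3 to 1061 higher and 7 to 875 lower, the most without PBS library A. Of the low-oxygen genes, 5 lower by limma, the count was 0 with no filter, 1 after median ratio scaling, 2 after quantile normalization, 7 after rescaling to an equal sum and 15 by voom, and 2 to 16 without 1 library, with 0 to 1 higher. Of the other clock genes 0 to 2 were lower without 1 library, and 1 by voom. The number of members with a negative difference ran from 6 to 8 without 1 library. The causes of these changes were not tested. The difference of PER3 was 0.43 with a pseudocount of 0.1 and 0.01 with a pseudocount of 5, and that of BHLHE41 was -0.51 and -0.05.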
